A study of Mus musculus with 8 samples.

Results

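The 9 genes Cxcl12, Cxcr4, Cd44, Itga4, Itgb1, Itgb2, Selplg, Thbs1 and Cd47 encode ligands, receptors and adhesion molecules that hold blood-forming and leukaemic cells in the bone marrow. They were taken by symbol, and all 9 were found among the 27179 genes of the count table. RNA-seq of polyadenylated RNA was made from MLL-AF9 acute myeloid leukaemia cells, labelled wild type, that carry green fluorescent protein (GFP), controlled by what the labels term the ubiquitin transporter, and luciferase, controlled by the β-actin promoter. The leukaemia was taken from a terminally ill mouse, grown in culture with SCF, IL-3 and IL-6, and injected intravenously, without preconditioning, into male mice aged 8 to 10 weeks. In 3 libraries the mice had eaten food without branched-chain amino acids (BCAA), which are leucine, isoleucine and valine, and in 5 libraries food with the standard amino acids. All mice of both diets were also given 5+3 chemotherapy, made up of 5 daily doses of cytarabine (100 mg/kg) and 3 of doxorubicin (3 mg/kg). At the maximum response, living GFP-positive cells were sorted from crushed bones. The labels name the first group only BCAA, and the series title and design give it as the BCAA-free diet.

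In the marrow, stromal cells secrete the chemokine CXCL12, and its receptor CXCR4 on blood-forming and leukaemic cells draws them to the niche and keeps them there. Integrins then bind the cells to VCAM1, fibronectin and ICAM1, while CD44 binds hyaluronan and the PSGL-1 protein of Selplg binds selectins on endothelium. Thrombospondin-1, the product of Thbs1, is a matrix glycoprotein that binds CD47, a surface protein that also signals to macrophages not to engulf the cell.

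The 250 bases before the start of Cxcl12 and of its receptor gene Cxcr4 are shown because the ligand gene had the largest diet difference of the 9 and the receptor gene the smallest. RefSeq promoter sequences (GRCm38.p6) matched 6 of the 9 genes, all but Itgb2, Selplg and Thbs1. Capitals mark the GC box GGGCGG, the TATA box TATAAA and the core motif of NRF1, each searched for on both strands. The Cxcl12 window lies on the plus strand at chr6:117168285-117168534, and that of Cxcr4 on the minus strand at chr1:128592300-128592549.
Cxcl12: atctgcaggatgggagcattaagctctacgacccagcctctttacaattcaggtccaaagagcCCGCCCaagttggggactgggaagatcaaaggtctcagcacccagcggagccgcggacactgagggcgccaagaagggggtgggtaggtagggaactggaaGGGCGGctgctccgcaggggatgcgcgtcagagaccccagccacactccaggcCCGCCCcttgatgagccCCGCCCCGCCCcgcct
Cxcr4: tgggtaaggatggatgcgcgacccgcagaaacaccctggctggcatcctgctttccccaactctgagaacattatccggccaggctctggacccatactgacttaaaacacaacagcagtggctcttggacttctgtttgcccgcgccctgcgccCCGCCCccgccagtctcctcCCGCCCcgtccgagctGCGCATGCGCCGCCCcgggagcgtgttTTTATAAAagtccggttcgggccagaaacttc
The Cxcl12 window held 5 GC boxes, the last 2 overlapping, and no TATA box or NRF1 core. The Cxcr4 window held 3 GC boxes, 2 overlapping TATA box matches, and 1 NRF1 core whose last base is shared with a GC box. Of 32851 promoter windows of this length, 32.7% held a GC box, 12.4% a TATA box and 0.782% the NRF1 core. Neither window held the hypoxia response core ACGTG, found in 16.6% of all windows, or the amino acid response core TGATGNAA, found in 3.45%.

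The BCAA-free libraries held 14851240 to 30306697 counts and the standard-diet libraries 16588662 to 38966911 (p = 0.857 by exact permutation, two-sided, where 0.0357 is the lowest attainable). All 16 leukaemia markers (among them Hoxa9, Meis1, Mpo and Myb) were detected in every library. Their summed level was 8830 to 9874 CPM (counts scaled to the TMM-normalised library total) on the BCAA-free diet and 10754 to 13207 CPM on the standard diet, mostly Mpo. Without Mpo, the other 15 summed to 2902 to 3050 CPM and 3131 to 3832 CPM in the same order. The recipients were male, whereas the sorted cells carried Xist, the RNA of the inactive X chromosome of female cells, at 1452 to 1671 CPM on the BCAA-free diet and 1856 to 4202 CPM on the standard diet. The sex of the mouse that the leukaemia came from is not given in the labels. Y-linked genes, added as a list after the counts had been seen, were read as RNA of the recipients on that basis. Ddx3y, Uty, Kdm5d and Eif2s3y together were at 18.8, 37.2 and 8.02 CPM in BCAA-free replicates 1, 2 and 3, against 5.45 to 15.2 CPM on the standard diet.

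Per length of exon, the receptor and adhesion genes stood far above the ligand genes. On the BCAA-free diet Itgb1 had the highest level of the 9, 105 ± 12.9 CPM per kilobase (SD, n = 3), followed by Cxcr4, Itgb2, Cd47, Cd44 and Itga4 down to 46.9 ± 4.16. On the standard diet the order was Itgb1 at 108 ± 7.96 CPM per kilobase (SD, n = 5), then Itgb2, Cxcr4, Cd47, Cd44 and Itga4 at 59.2 ± 8.48. Within either diet each of these 6 overlapped its neighbour in the order by its SD. Selplg followed at 17.8 ± 1.06 and 19.1 ± 2.3 CPM per kilobase, the BCAA-free value first. Cxcl12 was at 3.32 ± 1.92 CPM per kilobase on the BCAA-free diet and 0.728 ± 0.315 on the standard diet. Thbs1 came last, at 0.798 ± 0.477 and 0.192 ± 0.0458 CPM per kilobase in the same order.

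The comparison of the diets asked which of these genes differed in the leukaemia cells after chemotherapy when the food held no BCAA. Both ligand genes rose about 4-fold, and none of the 7 receptor and adhesion genes passed the test. Thus 2 of the 9 were called, both higher, by edgeR's quasi-likelihood test at an adjusted p under 0.05. Over all 13364 genes tested 0.756% were called, 0.217% as higher and 0.539% as lower. The 9 genes had a median log2 fold change of -0.10 (BCAA-free over standard diet), against 0.02 over all genes tested. DESeq2 called 3 of the 9 (2.79% of all genes), adding Cd44 as lower, and limma-voom called Cxcl12 alone (0.479% of all genes). The labels call the libraries biological replicates and do not say whether each came from 1 mouse, so the p-values measure the spread between libraries.

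**Figure D1:**
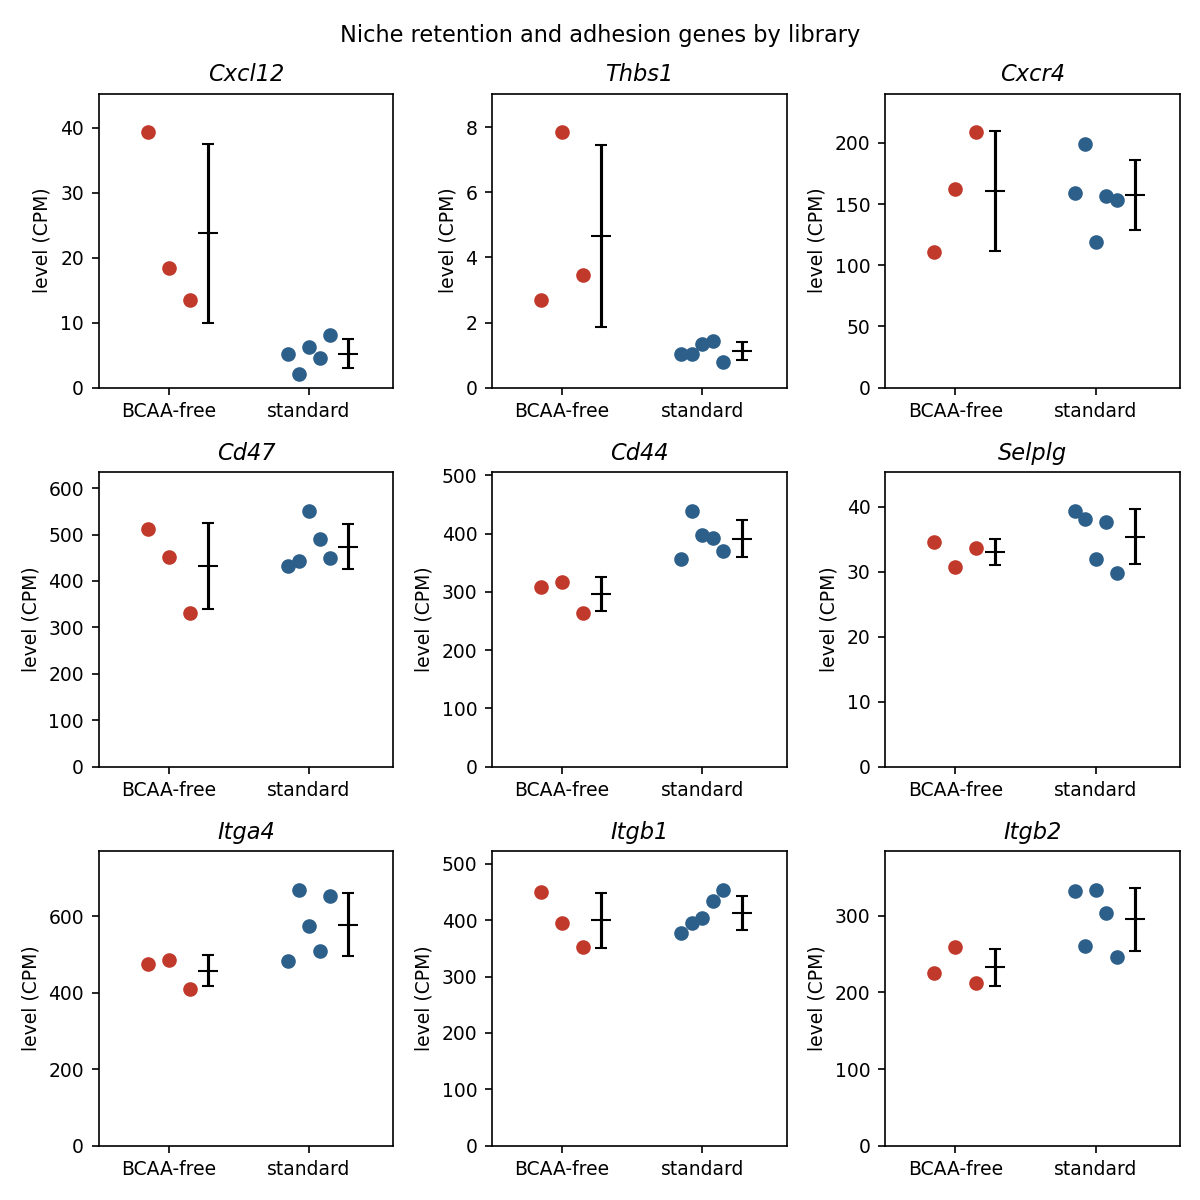
Level of each of the 9 genes (CPM, linear axes from 0) in the 3 BCAA-free libraries (red) and the 5 standard-diet libraries (blue), with mean ± SD beside each group. Cxcl12 and Thbs1 are higher in every BCAA-free library than in any standard-diet library, Cd44 is lower in every one, and the other 6 genes overlap.

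Cxcl12 (gene 20315, chromosome 6 from 117168535 to 117181368 in GRCm38) is the marrow's main retention chemokine. It was at 39.4, 18.4 and 13.5 CPM in BCAA-free replicates 1, 2 and 3, against 5.12, 2.04, 6.23, 4.5 and 8.16 CPM in standard-diet replicates 1 to 5. These levels stand on 340 to 588 counts in the BCAA-free libraries and 36 to 201 in the standard-diet libraries. The groups do not overlap, and BCAA-free replicate 1 lies far above its 2 companions. The means were 23.8 ± 13.8 CPM (SD, n = 3) and 5.21 ± 2.25 CPM (SD, n = 5), so Cxcl12 rose 4.54-fold (log2 fold change 2.18, SE 0.40, edgeR adjusted p = 0.0374). In edgeR's fit 0.524% of all tested genes had a log2 fold change at least as large in either direction.

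Thbs1 (gene 21825, chromosome 2 from 118111876 to 118127133) encodes the thrombospondin that binds CD47. Its level was low, at 2.68, 7.86 and 3.47 CPM in BCAA-free replicates 1 to 3, against 1.02, 1.02, 1.35, 1.44 and 0.786 CPM in standard-diet replicates 1 to 5. Behind these values were 40 to 145 counts on the BCAA-free diet and 13 to 40 on the standard diet. The groups do not overlap, and BCAA-free replicate 2 is the highest library, where replicate 1 was for Cxcl12. Thbs1 rose 4.14-fold, to 4.67 ± 2.79 CPM (SD, n = 3) on the BCAA-free diet, against 1.12 ± 0.268 CPM (SD, n = 5) on the standard diet (log2 fold change 2.05, SE 0.44, edgeR adjusted p = 0.0415).

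Each of these calls lay near the threshold in edgeR. The adjusted p of Cxcl12 was 8.41e-07 in DESeq2 and 0.0341 in limma-voom, and that of Thbs1 0.00169 and 0.091. When 1 library at a time was left out in edgeR, Cxcl12 kept its call in 3 of 8 fits. These lacked BCAA-free replicate 3, standard-diet replicate 2 or standard-diet replicate 5, and the highest adjusted p was 0.119, in the absence of standard-diet replicate 4. Without BCAA-free replicate 1 its log2 fold change was 1.61 (SE 0.36, adjusted p = 0.0682). Thbs1 kept its call in 2 of the 8, without BCAA-free replicate 1 or 3, and without BCAA-free replicate 2 its log2 fold change was 1.44 (SE 0.49, adjusted p = 0.29). Neither passed without standard-diet replicate 1, 3 or 4, or without BCAA-free replicate 2. The plot of these fits shows log2 fold changes above 1 for both genes throughout.

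**Figure D2:**
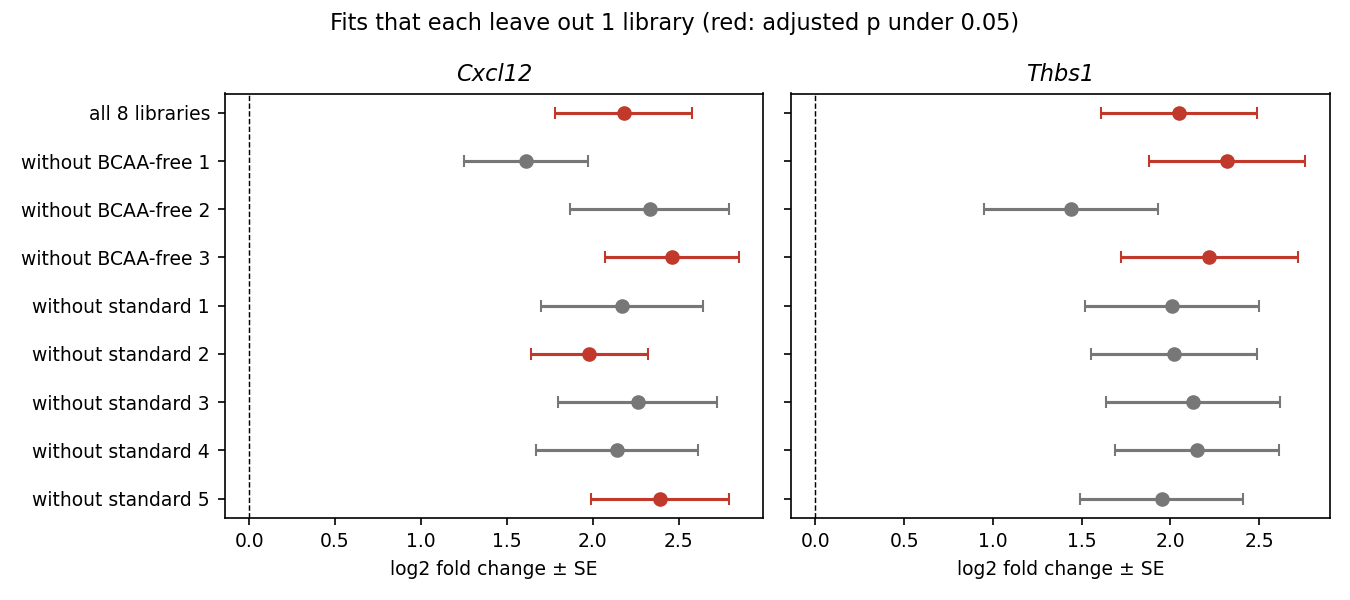
Log2 fold change of Cxcl12 and Thbs1 (BCAA-free over standard diet, ± SE) with all 8 libraries and in the 8 fits with 1 library left out. Red points have an adjusted p under 0.05 in edgeR, which holds for 3 of the 8 for Cxcl12 and 2 of the 8 for Thbs1.

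Cxcl12 is known as a product of stromal cells and Thbs1 of platelets, macrophages and stroma, so markers of these cells were read beside them. In bulk RNA, more cells of a type and more RNA per cell cannot be told apart. The 21 stromal markers summed to 46.4 to 63.6 CPM on the BCAA-free diet and 56.0 to 85.9 CPM on the standard diet. Angpt1 made up most of that. The other 20 summed to 12.2 to 21.7 CPM on the BCAA-free diet and 7.6 to 16.6 CPM on the standard diet, and Foxc1 alone was higher without overlap. Of the 21, 15 were at 0 in at least 1 library. The leptin receptor gene Lepr, which marks the CXCL12-rich reticular cells, was near 0, at 1.34, 0.867 and 0.604 CPM in BCAA-free replicates 1 to 3 and 0.0567 to 1.02 CPM on the standard diet. Adipoq, another marker of them, was at 2.68, 1.19 and 0.254 CPM in BCAA-free replicates 1 to 3 and 0 to 0.847 CPM on the standard diet. BCAA-free replicate 1 was thus the highest for Lepr and Adipoq as it was for Cxcl12. Kitl (2.21 CPM), Ebf3 (1.94), Sparc (2.35), Cxcl14 (0.537), Il7 (0.335) and Dcn (0.335) were also highest there, on 5 to 35 counts. The rest of the 21 were highest in other libraries. Angpt1 was lowest in BCAA-free replicate 1 (31.4 CPM). Foxc1 was highest in BCAA-free replicate 2 (2.87 CPM), and Col1a2 in standard-diet replicate 1 (2.83 CPM). The part of stromal cells in the rise of Cxcl12 was not tested.

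The 14 megakaryocyte and platelet markers summed to 10.5, 21.6 and 10.3 CPM in BCAA-free replicates 1 to 3 and 7.26 to 12.4 CPM on the standard diet. BCAA-free replicate 2, highest for Thbs1, was also highest for Itgb3 (12.1 CPM), Itga2b (3.95), Gp1ba (2.44), Gp5 (1.03) and Pf4 (0.758). The rest of the 14 were not highest there, and Gp6 was at 0 in every library. Pf4, the platelet chemokine, was at 0.537 to 0.758 CPM and 0 to 0.397 CPM, BCAA-free first. The 14 macrophage markers summed to 255 to 361 CPM on the BCAA-free diet and 358 to 431 CPM on the standard diet, with Vcam1 the highest. Without Vcam1 they summed to 149.6 to 190.3 CPM and 151 to 212 CPM in the same order, with Adgre1 the highest. Besides Vcam1, only Adgre1 and Slc40a1 among the tested macrophage markers had a negative log2 fold change in edgeR (-0.63 and -0.04). Of the 14, 5 (C1qa, C1qc, Cd5l, Hmox1 and Marco) were higher without overlap and Vcam1 was lower without overlap. None of the 14 passed in edgeR, and Hmox1, the haem-degrading enzyme, passed in DESeq2 (adjusted p = 0.0373, log2 fold change 0.93 in edgeR). C1qa, a complement gene of tissue macrophages, was at 4.01 to 6.44 CPM on the BCAA-free diet and 2.04 to 3.72 CPM on the standard diet. The 14 endothelial markers summed to 44.6 to 66.9 CPM and 38.9 to 70.4 CPM, the BCAA-free diet first. Cdh5 was at 2.01, 0 and 0 CPM in BCAA-free replicates 1 to 3 and 0 to 0.423 CPM on the standard diet. Eng, the endothelial coreceptor endoglin, was higher without overlap, at 7.53 to 10.5 CPM on the BCAA-free diet and 3.18 to 5.35 CPM on the standard diet (log2 fold change 1.02, adjusted p = 0.0813 in edgeR and 0.0137 in DESeq2). The 15 lymphoid markers summed to 36.0 to 158 CPM on the BCAA-free diet and 17.5 to 59.2 CPM on the standard diet, with Cd79a and Cd79b called higher. The sums of 13 neutrophil markers were 1663 to 6488 CPM and 870 to 6677 CPM, and those of 11 erythroid markers 27.2 to 77.7 CPM and 12.3 to 28.8 CPM, with Car1 called higher. Among markers that edgeR did not call, DESeq2 also called Ms4a1, Cd8a, Il7r, Hba-a2 and Flt3 higher and Angpt1 and Mpo lower. The part of these cells in the rise of Thbs1 or Cxcl12 was not tested.

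The Y-linked genes were set beside the ligand genes library by library. Their sum in BCAA-free replicate 3, 8.02 CPM, lay inside the standard-diet range of 5.45 to 15.2 CPM. In that library Cxcl12 was at 13.5 CPM and Thbs1 at 3.47 CPM, above every standard-diet library. BCAA-free replicates 1 and 2, at 18.8 and 37.2 CPM of Y-linked RNA, lay above the standard-diet range. BCAA-free replicate 3 also had the highest erythroid marker sum, 77.7 CPM, against 12.3 to 28.8 CPM on the standard diet. The part of recipient RNA in the rise of either ligand gene was not tested.

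**Figure D3:**
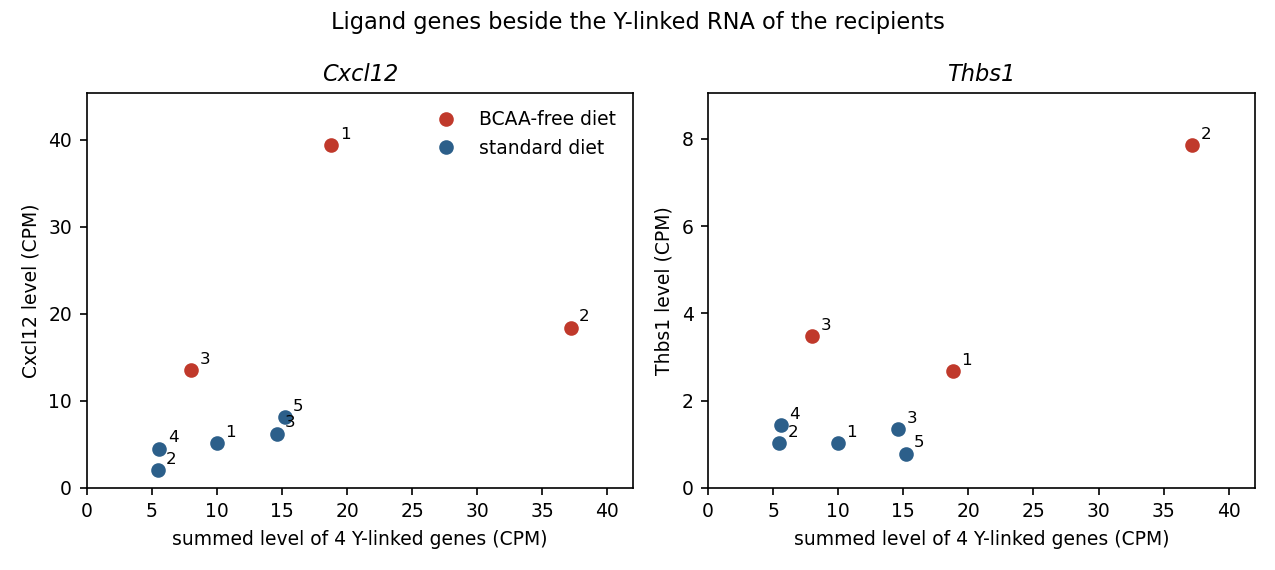
Level of Cxcl12 (left) and Thbs1 (right) in each library (CPM) against the summed level of the 4 Y-linked genes (CPM), with replicate numbers beside the points, BCAA-free diet in red and standard diet in blue. BCAA-free replicate 3 has 8.02 CPM of Y-linked RNA, inside the standard-diet range, and lies above all standard-diet libraries in both panels.

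The receptors of the 2 ligands did not pass. Cxcr4 (gene 12767, chromosome 1 from 128588199 to 128592299), the G protein-coupled receptor of CXCL12, was at 111, 162 and 209 CPM in BCAA-free replicates 1 to 3, against 159, 199, 119, 157 and 153 CPM in standard-diet replicates 1 to 5. The BCAA-free libraries hold both the lowest and the highest value, so the spread within that diet exceeds the difference between diets. The log2 fold change was 0.03 with a 95% interval of -0.38 to 0.43 (edgeR adjusted p = 0.965). BCAA-free replicate 1, lowest for Cxcr4, was highest for Cxcl12. Cd47 (gene 16423, chromosome 16 from 49851328 to 49912503) was at 512, 452 and 330.5 CPM in BCAA-free replicates 1 to 3 and 432 to 551 CPM on the standard diet, with a median of 450.5. BCAA-free replicate 3 was the lowest library, and the other 2 lay among the standard-diet values (log2 fold change -0.13, 95% interval -0.41 to 0.14, adjusted p = 0.703).

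Cd44 (gene 12505, chromosome 2 from 102811141 to 102901669), the hyaluronan receptor, was the third gene whose groups did not overlap. It was at 308, 317 and 263 CPM in BCAA-free replicates 1 to 3, against 356, 439, 398, 393 and 370 CPM in standard-diet replicates 1 to 5. Every BCAA-free library lies below every standard-diet library. The means were 296 ± 29.3 CPM (SD, n = 3) and 391 ± 31.9 CPM (SD, n = 5), with a log2 fold change of -0.40 (SE 0.11, 95% interval -0.63 to -0.18). It did not pass in edgeR (adjusted p = 0.0921, and 0.0838 to 0.25 with 1 of the 8 libraries left out) and passed in DESeq2 (adjusted p = 0.0151). The counts are per gene, so the splice variants of Cd44 cannot be told apart. Of the 9 genes 3 did not overlap between diets, 2 of them higher and 1 lower. Over all tested genes 8.84% did not overlap, 4.17% being higher and 4.68% lower.

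Selplg (gene 20345, chromosome 5 from 113817798 to 113832528), which encodes the selectin ligand PSGL-1, was at 34.6, 30.8 and 33.7 CPM in BCAA-free replicates 1 to 3. On the standard diet it was at 29.8 to 39.4 CPM with a median of 37.7. The BCAA-free values lie inside the standard-diet range (log2 fold change -0.10, 95% interval -0.40 to 0.19, edgeR adjusted p = 0.799).

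The integrin genes encode the α4 chain (Itga4), the β1 chain with which it forms VLA-4, the receptor for VCAM1 (Itgb1), and the β2 chain of the leukocyte integrins (Itgb2). Itga4 (gene 16401, chromosome 2 from 79255426 to 79333114) was at 476, 486 and 411 CPM in BCAA-free replicates 1 to 3, against 483, 669, 574, 510.4 and 654 CPM in standard-diet replicates 1 to 5. The groups overlap only through BCAA-free replicate 2 and standard-diet replicate 1 (log2 fold change -0.34, SE 0.12, 95% interval -0.59 to -0.08, edgeR adjusted p = 0.247). It overlaps Cerkl by 624 bases in the annotation, where reads cannot be assigned without the strand setting, and Cerkl itself was at 1.57 to 4.99 CPM. Itgb2 (gene 16414, chromosome 10 from 77530329 to 77565708) was at 226, 259 and 213 CPM in BCAA-free replicates 1 to 3, against 333, 260.2, 334, 304 and 246 CPM in standard-diet replicates 1 to 5. Standard-diet replicate 5 alone lay below a BCAA-free library (log2 fold change -0.34, SE 0.12, 95% interval -0.60 to -0.09, adjusted p = 0.232). Itgb1 (gene 16412, chromosome 8 from 128685654 to 128733579) was at 451, 395 and 353 CPM in BCAA-free replicates 1 to 3 and 378 to 454 CPM on the standard diet, with a median of 404. Its groups overlapped widely (log2 fold change -0.05, 95% interval -0.27 to 0.18, adjusted p = 0.889). The intervals of Cd44, Itga4 and Itgb2 leave out 0 before adjustment over all genes, as 13.5% of all tested genes have an unadjusted p under 0.05, and 5 of the 9.

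**Figure D4:**
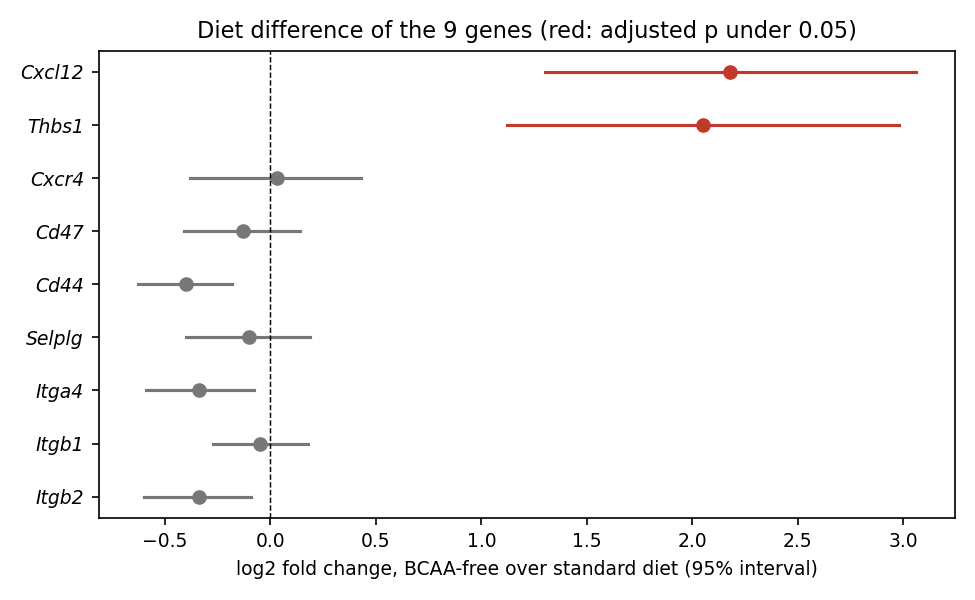
Log2 fold change of the 9 genes, BCAA-free over standard diet, with the 95% interval of edgeR's fit before adjustment (3 against 5 libraries). The ligand genes Cxcl12 and Thbs1 (red, adjusted p under 0.05) lie above 2, and the 7 receptor and adhesion genes lie between -0.40 and 0.03.

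The balance of ligand and receptor RNA within a library restates the levels above and is given as a description. Cxcl12 per Cxcr4, each in CPM per kilobase, was 0.0896, 0.0287 and 0.0163 in BCAA-free replicates 1 to 3 and 0.00258 to 0.0134 on the standard diet. Thbs1 per Cd47 was 0.00558, 0.0185 and 0.0112 in BCAA-free replicates 1 to 3 and 0.00186 to 0.00313 on the standard diet. For both pairs the receptor RNA exceeded the ligand RNA in every library. That the groups do not overlap follows from the ligand values and adds nothing to their tests. Itga4 per Itgb1, the 2 chains of VLA-4, was 0.412 to 0.481 on the BCAA-free diet and 0.46 to 0.659 on the standard diet, which overlap. Itgb2 per Itgb1 was 0.645 to 0.844 and 0.696 to 1.13, the BCAA-free diet first, and overlapped as well.

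Around the 9 genes, 7 lists of adhesion and homing genes were read, drawn up by textbook role. They held 139 tested genes without the 9, of which 3 fell and none rose in edgeR. That is 2.16%, beside 0.756% of all tested genes called in either direction and 0.539% called lower. An unadjusted p under 0.05 was found for 28 of the 139, and for 13.5% of all tested genes. Their median log2 fold change was 0.02, equal to that of all genes tested. By list the median was 0.07 for the chemokine axis, 0.22 for integrin chains, -0.08 for integrin activation, -0.06 for the selectin axis, -0.06 for Cd44 and hyaluronan, 0.05 for thrombospondin and Cd47, and 0.16 for the immunoglobulin family and tetraspanins. DESeq2 called 3 lower and 4 higher (Dpp4, Cd74, Itgal and St3gal6), and limma-voom called the same 3 lower.

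**Figure D5:**
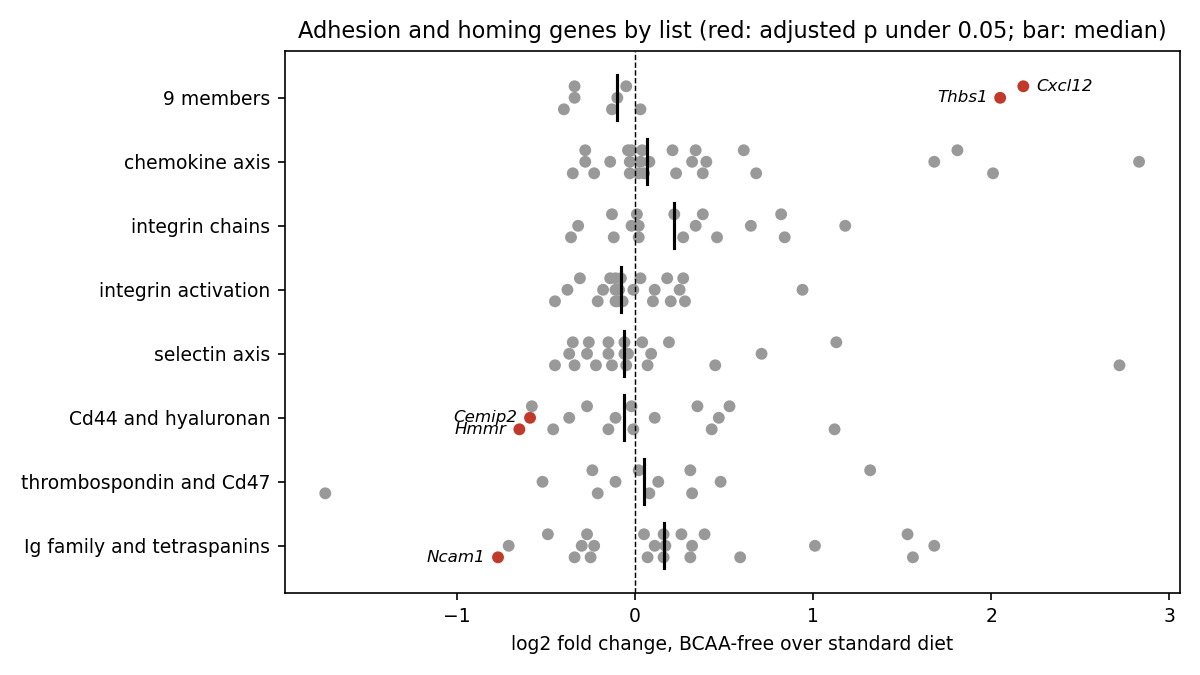
Log2 fold change (BCAA-free over standard diet) of each tested gene of the 9 and of 7 lists of adhesion and homing genes, 1 point a gene, with the list median as a black bar. Red points passed in edgeR, which are Cxcl12 and Thbs1 above 2 and Hmmr, Cemip2 and Ncam1 below 0.

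Beside Cd44, the list of its linkers and of hyaluronan handling had 2 of 16 tested genes lower and none higher. Over all tested genes 0.539% were called lower. Hmmr, the hyaluronan receptor RHAMM and a protein of the mitotic spindle, fell 1.57-fold (log2 fold change -0.65, SE 0.12, edgeR adjusted p = 0.0182). It was at 117, 128 and 115 CPM in BCAA-free replicates 1 to 3 and 164 to 218 CPM on the standard diet. Cemip2, a cell-surface protein linked to hyaluronan breakdown, fell 1.51-fold, at 78.9, 96.5 and 83.0 CPM in BCAA-free replicates 1 to 3 and 115 to 150 CPM on the standard diet (adjusted p = 0.0268). Neither overlapped between diets. Hmmr lost its call without BCAA-free replicate 1 or 2 or standard-diet replicate 5 (adjusted p up to 0.0723), and Cemip2 without BCAA-free replicate 1 or 3 or standard-diet replicate 4 (up to 0.0996).

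Among immunoglobulin-family adhesion molecules and tetraspanins, 1 of 23 tested genes fell and none rose, where 0.539% of all tested genes were called lower. The gene that fell was Ncam1, the neural cell adhesion molecule, also called CD56. Its level was 156, 162 and 146 CPM in BCAA-free replicates 1 to 3 and 232 to 333 CPM on the standard diet. It fell 1.71-fold (log2 fold change -0.77, SE 0.12, edgeR adjusted p = 0.00725) and kept its call whichever of the 8 libraries was left out (adjusted p 0.00715 to 0.0367). Vcam1, the ligand of VLA-4, named after its values were seen, was at 105 to 201 CPM on the BCAA-free diet and 207 to 239 CPM on the standard diet, a difference that did not pass (log2 fold change -0.49, adjusted p = 0.182).

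None of the other 5 lists had a called gene in edgeR or limma-voom. Of 17 tested integrin chains 2 had an unadjusted p under 0.05, and DESeq2 called 1, beside 13.5% and 2.79% of all tested genes. The 2 are partners of Itgb2. Itgal, the αL chain of LFA-1, was at 123 to 131 CPM on the BCAA-free diet and 76.1 to 112 CPM on the standard diet, without overlap (log2 fold change 0.46, SE 0.12, adjusted p = 0.0855, and 0.0174 in DESeq2). It passed in edgeR without standard-diet replicate 1 (adjusted p = 0.0491). Itgam, the αM chain of Mac-1, was at 256 to 377 CPM on the BCAA-free diet and 335 to 417 CPM on the standard diet (log2 fold change -0.36, SE 0.13, adjusted p = 0.229). The 2 α chains thus have opposite signs, and neither passed over all genes.

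In the chemokine list, an unadjusted p under 0.05 was found for 10 of 26 tested genes, and DESeq2 called Dpp4 and Cd74, where the shares over all tested genes were 13.5% and 2.79%. The smallest p values were those of Dpp4, the peptidase that cuts CXCL12 (3.15, 12.0 and 1.56 CPM in BCAA-free replicates 1 to 3, and 0.624 to 2.12 CPM in standard-diet libraries, adjusted p = 0.152) and S1pr1. S1pr1, the receptor for the egress signal sphingosine-1-phosphate, was at 2.88, 12.5 and 0.986 CPM in BCAA-free replicates 1 to 3 and 0 to 1.45 CPM on the standard diet (adjusted p = 0.213). Both were highest in BCAA-free replicate 2, where the lymphoid markers summed to 158 CPM and the Y-linked genes to 37.2 CPM. Without that library the adjusted p of Dpp4 was 0.746. The part of lymphoid or recipient RNA in the levels of Dpp4 and S1pr1 was not tested. Ackr3, the scavenger receptor of CXCL12, had 4 counts in BCAA-free replicate 2 and 0 in the other 7 libraries.

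Of 23 tested genes of integrin activation 4 had an unadjusted p under 0.05, beside 13.5% of all tested genes, and DESeq2 called none. Lims1 (adjusted p = 0.192) and Rap1a (0.255) had the smallest p in edgeR. Lims1, an adaptor of the integrin-linked kinase, was at 101 to 122 CPM on the BCAA-free diet and 121 to 169 CPM on the standard diet. Rap1a, a small GTPase that activates integrins, was at 44.5 to 57.1 CPM and 55.3 to 93.0 CPM, the BCAA-free diet first. Both pairs of ranges just overlap.

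In the selectin axis an unadjusted p under 0.05 was found for 2 of 22 tested genes, of which DESeq2 called 1. The shares over all tested genes were 13.5% and 2.79%. St3gal6, a sialyltransferase that builds selectin ligands, was near the detection limit at 0.732 to 2.21 CPM on the BCAA-free diet and 0 to 0.407 CPM on the standard diet (edgeR adjusted p = 0.139). Spn, the sialomucin CD43, was at 382 to 451 CPM on the BCAA-free diet and 434 to 570.1 CPM on the standard diet (adjusted p = 0.32). Of 12 tested thrombospondin and Cd47 partners 2 had an unadjusted p under 0.05, beside 13.5% of all tested genes, and DESeq2 called none. Cd36, a thrombospondin receptor, was at 2.26 to 3.14 CPM on the BCAA-free diet and 0.484 to 1.68 CPM on the standard diet, without overlap (adjusted p = 0.271). Bnip3, a mitochondrial protein, was at 8.27 to 10.4 CPM and 9.86 to 17.8 CPM, the BCAA-free diet first (adjusted p = 0.318). Sirpa, the macrophage receptor for CD47, named after its values were seen, was at 212 to 239 CPM on the BCAA-free diet and 173 to 239.6 CPM on the standard diet (adjusted p = 0.646).

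The genes whose profile was most like that of Cxcl12 and of Cxcr4 were sought, since these 2 varied most over the libraries among members with a mean of at least 10 CPM. Likeness was the root-mean-square distance between standardised log2 profiles over the 8 libraries, among 9023 genes. Nearest to Cxcl12 were Mta3 (distance 0.214), Prdx1 (0.293) and Naa20 (0.337). Mta3, a subunit of a chromatin remodelling complex, was at 44.2, 36.9 and 35.2 CPM in BCAA-free replicates 1 to 3, in the same order as Cxcl12. Nearest to Cxcr4 were Bex6 (0.235), Baz1b (0.24) and Rhbdd3 (0.25). Baz1b, a chromatin remodelling factor, was at 544, 587 and 643 CPM in BCAA-free replicates 1 to 3, again in the order of Cxcr4. With 8 libraries and this many genes, close profiles are found for any gene, and they are given as a description.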

How the data were processed

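The authors deposited 1 table of raw counts per Entrez gene in 8 libraries, without normalization. The submitters' processing notes name mm10, featureCounts and Cell Ranger. For the aligner, the strand setting and multi-mapping reads nothing is stated in the sources used here. The Kapa mRNA HyperPrep protocol was used, with paired reads of 38 bp, per the labels' protocols. Symbols and coordinates come from RefSeq's GRCm38.p6 table, which matched 25275 of 27179 identifiers, and exon lengths from GENCODE for mm10.

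The test was edgeR 4.0.16 (R 4.3.3): quasi-likelihood F test with robust dispersion, TMM factors, low-count filter (minimum count 10, total 15), a single term for diet, Benjamini-Hochberg adjustment over 13364 genes at 0.05. CPM use TMM-scaled library sizes. Standard errors follow from each F statistic (log2 fold change over its root). Alternatives were DESeq2 1.42.0, limma-voom (limma 3.58.1), DESeq2's size factors in edgeR, no filter, a non-robust fit, libraries left out and a replicate block. The deviations of same-numbered libraries were not positively correlated, so the numbers were not taken as pairs. No 2 replicates agreed within counting noise (chi-square over degrees of freedom 20.3 to 66). The fit was tested on simulated data with known changes.

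The 9 genes, the 7 adhesion lists and the 8 marker lists were chosen with earlier results of these data known. The rule for named genes took the 9, up to 4 called genes of each adhesion list (or the 2 with the smallest p), and the 3 nearest profiles (pseudocount 0.5) for the 2 most variable of the 9 with a mean of at least 10 CPM. The Y-linked list and the genes said to be named after their values were seen were added later.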

Additional observations from a re-analysis of the deposited data

Results flagged for a closer look

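Of 29 genes checked in the 5 standard-diet libraries, 1 had a library far from the others, about what chance gives at 1 in 20. Xist was at 4202 CPM in standard-diet replicate 2, against 1856 to 2271 CPM in the other 4, where the gap took up 0.823 of the range.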

How the results depend on the processing

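Cxcl12 and Thbs1 kept a positive log2 fold change in every alternative. Leaving out each library in turn gave ranges of 1.61 to 2.46 for Cxcl12, 1.44 to 2.32 for Thbs1, -0.21 to 0.24 for Cxcr4, -0.28 to 0.02 for Cd47, -0.15 to 0.03 for Itgb1, -0.46 to -0.33 for Cd44, -0.39 to -0.27 for Itga4, -0.44 to -0.29 for Itgb2 and -0.16 to -0.06 for Selplg. Then 0 to 2 of the 9 genes, 1 to 4 of the list genes and 32 to 134 of all genes were called. Cxcl12 lost its call with no filter (log2 fold change 2.17, adjusted p = 0.0943). Thbs1 lost it in limma-voom (1.90, 0.091), in the non-robust fit (2.05, 0.0525) and without standard-diet replicate 1 and BCAA-free replicate 3 together (2.18, 0.104), where Cxcr4 was at -0.22. Each of these 4 settings called 1 of the 9. In DESeq2 Cd44 passed (-0.40, 0.0151) and 7 list genes were called. All genes called numbered 101 in edgeR, 373 in DESeq2, 64 in limma-voom and 237 with no filter. The cause was not tested. Same-numbered libraries did not deviate together (r = -0.081, -0.052 and -0.298), so the replicate block shows only a number. With the replicate block on replicates 1 to 3, 0 of all genes, 0 of the list genes and 0 of the 9 were called, with log2 fold changes of 2.40 for Cxcl12 (adjusted p = 0.147), 1.88 for Thbs1 (0.437), -0.01 for Cxcr4 and 0.02 for Itgb1. The same 6 libraries without the block, a fit added after seeing the data, gave 19 calls over all genes, 1 in the lists and 0 of the 9, with 2.39 for Cxcl12 (0.155), 2.04 for Thbs1 (0.155) and 0.02 for Itgb1. Thbs1 rests on 13 to 145 counts a library, the lowest of the 9.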

Other observations

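Of the 9 genes, BCAA-free replicate 3 had the lowest level of the 8 libraries for 5 (Cd44, Cd47, Itga4, Itgb1 and Itgb2) and the highest for Cxcr4. In the integrin activation list 3 genes, named after their values were seen, lay higher without overlap between diets and did not pass in edgeR. Rassf5, the RAP1 effector RAPL, was at 82.6 to 104 CPM on the BCAA-free diet and 71.7 to 81.0 CPM on the standard diet (adjusted p = 0.296). Sharpin, an inhibitor of integrin activation, was at 51.0 to 57.3 CPM and 40.0 to 50.5 CPM (0.322), and Pxn, the focal adhesion protein paxillin, at 189.9 to 199 CPM and 148 to 182 CPM (0.387), the BCAA-free diet first in each. Over the 7 lists 6 of 139 tested genes were higher and 4 lower without overlap, where 8.84% of all tested genes did not overlap.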
